A study of Mus musculus with 35 samples.

Results

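The mTORC1 genes described here were 10 genes listed by name, with no threshold on a measured value but with earlier results of these data known, out of the 48709 mouse genes counted in each library. They encode the kinase core of the complex (Mtor, Rptor and Mlst8), its activating GTPase (Rheb), its inhibitors (Tsc1, Tsc2 and Akt1s1) and effectors that it phosphorylates (Rps6kb1, Eif4ebp1 and Eif4ebp2). All 10 were found in the files and all 10 passed the filter on low counts, so that each was among the 13819 genes tested.

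RNA was sequenced from OT-I CTLs, which are cytotoxic CD8+ T cells grown from spleens of mice whose T cells carry 1 transgenic receptor for an ovalbumin peptide. The ages of the mice were not given in the sources used here. In every group the CD8+ T cells had been primed on coated anti-CD3 antibody with anti-CD28 and murine IL-2, and expanded in IL-2 at 200 IU/mL, so that the cells at 0 h and those later left without IL-2 had also seen the cytokine. The groups were untreated cells at 0 h, and cells kept for 24 h at pH 7.4, pH 7 or pH 6.6, with no added cytokine or with IL-2 at 200 IU/mL, in medium of low glucose content. Each of the 7 groups held 5 biological replicates, numbered 1 to 5, for 35 libraries in all.

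mTORC1 is a protein kinase complex that promotes protein, lipid and nucleotide synthesis and restrains autophagy. Growth factors and cytokines such as IL-2 act on it through AKT, which inhibits the TSC complex and so leaves Rheb bound to GTP, while amino acids act through the Rag GTPases on the lysosome. In T cells, mTORC1 is known for its part in growth, metabolism and effector differentiation after antigen or IL-2. The counts measure mRNA only, and give neither protein level nor phosphorylation. In bulk RNA, fewer cells expressing a gene and less of its RNA per cell cannot be told apart.

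The total count on genes was 16721319 to 34033340 per library, with a median of 24730020. CPM are counts scaled to a common library size with TMM factors, except those of the cell type markers, which are scaled by library total only. Defining T cell markers were present in all 35 libraries, with Cd3e at 350 to 611 CPM and Cd8a at 624 to 1575 CPM, while Gzmb, a cytotoxic granule protease, ranged from 39.4 to 8872 CPM. The 10 markers of CD4+ T, B, myeloid, NK and erythroid cells summed to 0.514 to 3.58 CPM, Ms4a1 was at 0 in 35 of 35 libraries, and the highest of them was Itgam at up to 3.50 CPM. The 0 h replicate 5 had the lowest correlation with its own group (median r = 0.978 over genes), and its Mtor, Rptor, Mlst8, Tsc1, Tsc2 and Eif4ebp2 values were the lowest and its Rheb and Eif4ebp1 values the highest of their group, so the comparisons with 0 h are also given without it. Between 32.8% and 48.3% of the deposited totals of a library were alignments to several places, which were in no gene's count. At least 97.1% of the 50-base windows in the exons of each member, read in the direction of the gene, were in no transcript of another gene. Exons of other genes on the opposite strand do not enter that share. They covered 22.5% of the exon bases of Mlst8, 7.20% of Tsc2, 2.90% of Akt1s1, 1.79% of Rps6kb1 and 0.624% of Rptor. Gene coordinates are from GRCm38 with the GENCODE M21 annotation.

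Of the 10 members, 9 matched by symbol in the RefSeq promoter table (build GRCm38.p6), all but Eif4ebp1. Of these, the 4 with the smallest adjusted p for pH 6.6 against pH 7.4 with IL-2 are shown from 250 bases before to 50 bases after the start, so that the regulatory sequence stands beside the values. They are Rheb (chr5:24842312-24842611, minus strand), Rptor (chr11:119602655-119602954, plus strand), Tsc1 (chr2:28640983-28641282, plus strand) and Rps6kb1 (chr11:86544758-86545057, minus strand), written 5′ to 3′ on the strand of the gene. Capitals mark the E-box CACGTG, the sequence bound by MYC with MAX and by MITF/TFE family factors.
Rheb: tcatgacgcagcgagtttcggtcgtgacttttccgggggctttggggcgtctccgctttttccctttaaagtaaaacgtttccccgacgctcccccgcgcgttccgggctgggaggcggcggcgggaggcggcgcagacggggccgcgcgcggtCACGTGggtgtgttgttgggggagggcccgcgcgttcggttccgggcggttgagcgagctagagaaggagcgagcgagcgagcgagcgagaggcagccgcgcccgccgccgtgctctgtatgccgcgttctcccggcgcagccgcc
Rptor: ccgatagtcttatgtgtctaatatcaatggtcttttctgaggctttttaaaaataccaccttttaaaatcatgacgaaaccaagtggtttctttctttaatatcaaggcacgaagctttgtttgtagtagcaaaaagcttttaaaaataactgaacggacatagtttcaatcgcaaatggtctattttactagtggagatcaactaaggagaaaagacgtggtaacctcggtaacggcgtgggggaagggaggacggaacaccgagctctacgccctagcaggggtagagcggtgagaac
Tsc1: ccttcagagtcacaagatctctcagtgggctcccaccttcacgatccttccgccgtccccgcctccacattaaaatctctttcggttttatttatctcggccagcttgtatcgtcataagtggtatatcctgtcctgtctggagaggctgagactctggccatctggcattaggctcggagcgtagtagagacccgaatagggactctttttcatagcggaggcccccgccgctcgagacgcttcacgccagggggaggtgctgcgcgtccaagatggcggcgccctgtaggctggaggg
Rps6kb1: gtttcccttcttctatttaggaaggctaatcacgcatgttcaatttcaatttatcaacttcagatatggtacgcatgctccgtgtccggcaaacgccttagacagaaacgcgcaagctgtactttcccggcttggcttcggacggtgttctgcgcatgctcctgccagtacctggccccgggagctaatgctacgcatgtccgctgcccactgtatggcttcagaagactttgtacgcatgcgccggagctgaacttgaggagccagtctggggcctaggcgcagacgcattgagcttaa
The Rheb window held the E-box 96 bases before the RefSeq start. In the GENCODE annotation Rheb starts further upstream, at 24842624, so that the whole window lies inside that gene. The E-box of Rheb was the only match among the 9 members with a window when the E-box and the ATF4 element core TGATGNAA were searched on both strands. Of 32851 promoter windows of the same length, 7.15% held the E-box and 3.97% the ATF4 element core. With 1 match in all, no matches overlapped, and a match describes letters and not binding.

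The first comparison, of cells with IL-2 at pH 6.6 against those at pH 7.4, addresses how acidity changes the transcripts of the pathway while IL-2 is present. Rptor and Tsc1 were higher at pH 6.6, and Mlst8, Rheb, Rps6kb1 and Eif4ebp1 were lower. Mtor, Tsc2, Akt1s1 and Eif4ebp2 did not pass the threshold (edgeR quasi-likelihood test, Benjamini-Hochberg adjusted p under 0.05 over all genes tested). The count of 6 of 10 members stands against 76.3% of all genes called in this comparison (higher 35.4%, lower 40.9%). Medians of the log2 fold change were 0.06 over the members and -0.07 over all genes tested. The 6 CD8+ cytotoxic T cell markers summed to 8622 to 11000 CPM at pH 7.4 with IL-2 and 2571 to 4034 CPM at pH 6.6 with IL-2. That sum includes the cytotoxic genes Gzmb and Prf1, at 39.4 to 8872 and 10.4 to 682 CPM over the 35 libraries. The T cell markers varied less over these libraries: Cd3e 350 to 611, Cd3g 384 to 1134, Cd8a 624 to 1575 and Cd8b1 196 to 440 CPM. The 10 markers of other cells summed to 0.514 to 1.13 CPM at pH 7.4 with IL-2 and 1.21 to 3.05 CPM at pH 6.6 with IL-2. Reads on no feature made up 3.91% to 5.18% of a library at pH 7.4 with IL-2, 7.34% to 8.83% at pH 6.6 with IL-2 and 7.70% to 10.2% at pH 7.4 without IL-2. The part of these values in the differences was not tested.

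**Figure D1:**
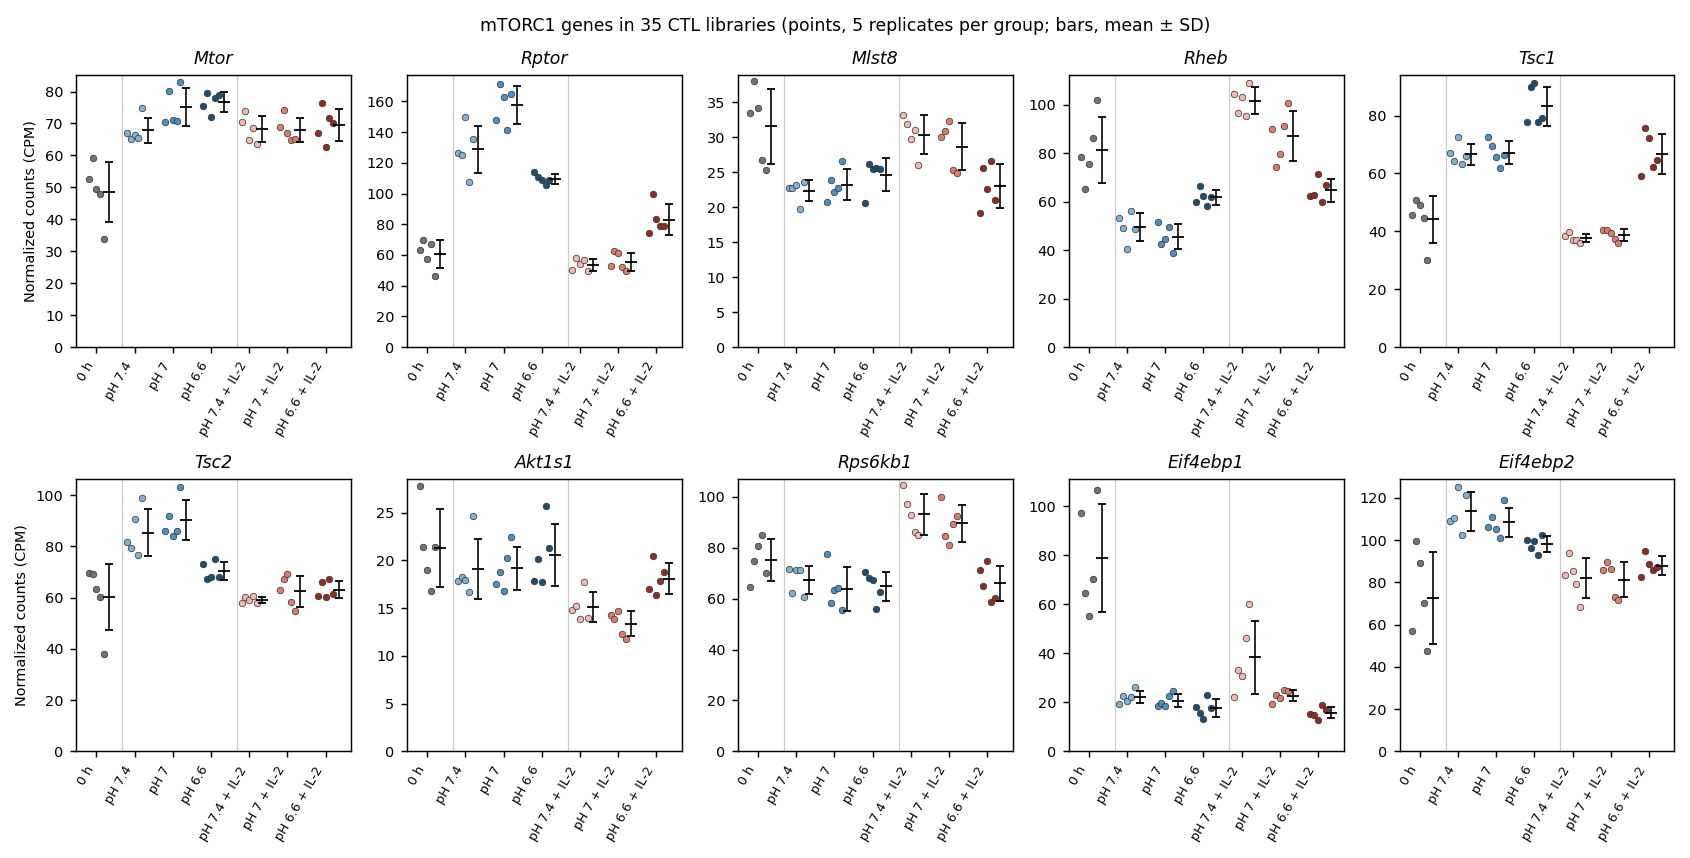
Normalized counts (CPM, vertical axis, starting at 0) of the 10 mTORC1 genes in the 7 groups; points are the 5 replicates of a group from left to right by number and bars are the mean ± SD. With IL-2, Rheb fell from 102 CPM at pH 7.4 to 64.7 CPM at pH 6.6 while Tsc1 rose from 37.7 to 66.7 CPM.

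Among the core subunits, Mtor (ENSMUSG00000028991, chr4:148448611-148557683, plus strand) encodes the kinase itself. With IL-2 its level was 63.7 to 73.8 CPM at pH 7.4 and 62.8 to 76.4 CPM at pH 6.6. The difference of 0.03 ± 0.08 (log2 fold change ± SE) had a 95% interval of -0.14 to 0.19 and an adjusted p of 0.788. The ranges of the groups overlapped, and the value was higher at pH 6.6 in 3 of 5 replicate pairs.

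Rptor (ENSMUSG00000025583, chr11:119602905-119899576, plus strand) encodes raptor, the scaffold that brings substrates to the kinase and defines mTORC1 against mTORC2. Its levels in replicates 1 to 5 were 50.0, 57.7, 54.2, 56.7 and 49.4 CPM at pH 7.4 with IL-2, and 74.4, 99.9, 83.7, 78.7 and 78.6 CPM at pH 6.6 with IL-2. Each replicate at pH 6.6 lay above all of those at pH 7.4. The log2 fold change was 0.63 ± 0.09, or 1.55-fold (adjusted p = 5.86e-08).

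Mlst8 (ENSMUSG00000024142, chr17:24473551-24479078, minus strand) encodes a small subunit that binds the kinase domain in both mTOR complexes. Its levels were 33.2, 31.9, 29.7, 31 and 26 CPM at pH 7.4 and 19.2, 25.6, 22.7, 26.6 and 21 CPM at pH 6.6. It was lower in 5 of 5 pairs, although the ranges touched, with replicate 4 at pH 6.6 above replicate 5 at pH 7.4. The log2 fold change was -0.40 ± 0.10 (adjusted p = 0.000678). Bricd5 covers 22.5% of the exon bases of Mlst8 on the opposite strand and had a mean count of 10.1 reads, against 664 for Mlst8. The strand setting of the counting was not given in the sources used here, so reads of overlapping genes may not be told apart.

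Rheb (ENSMUSG00000028945, chr5:24802823-24842624, minus strand) encodes the small GTPase that activates the kinase on the lysosome. Its levels were 105, 96.8, 103, 95.3 and 109 CPM at pH 7.4 and 62.2, 62.6, 71.6, 59.9 and 67.0 CPM at pH 6.6. All values at pH 6.6 were below all values at pH 7.4. The log2 fold change was -0.65 ± 0.09, or 0.637-fold (adjusted p = 1.59e-07).

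Tsc1 and Tsc2 encode hamartin and tuberin, which act in 1 complex in which tuberin turns Rheb off and hamartin stabilizes it. Tsc1 (ENSMUSG00000026812, chr2:28641228-28691167, plus strand) stood at 38.3, 39.9, 37.0, 37.0 and 36.1 CPM at pH 7.4 and at 59.0, 75.8, 72.1, 62.1 and 64.5 CPM at pH 6.6. The groups were clearly separate, with a log2 fold change of 0.82 ± 0.08, or 1.77-fold (adjusted p = 4.95e-11). Tsc2 (ENSMUSG00000002496, chr17:24595816-24632630, minus strand) stood at 57.7 to 60.5 CPM at pH 7.4 and 60.2 to 67.4 CPM at pH 6.6. Its log2 fold change of 0.10 (95% interval -0.11 to 0.30, adjusted p = 0.403) did not pass, although it was higher in 5 of 5 pairs. The antisense neighbour Pkd1 covers 7.20% of the exon bases of Tsc2 and had a mean count of 2460, against 1773 for Tsc2.

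Akt1s1 (ENSMUSG00000011096, chr7:44848991-44855421, plus strand) encodes PRAS40, which binds raptor and inhibits the complex until AKT phosphorylates it. It stood at 13.9 to 17.7 CPM at pH 7.4 and 16.4 to 20.4 CPM at pH 6.6. It was higher in 5 of 5 pairs, with a log2 fold change of 0.26 ± 0.12 (adjusted p = 0.0517). It passed the threshold in 7 of 12 alternative analyses, with adjusted p-values from 0.00393 to 0.120 over the 12.

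Rps6kb1 (ENSMUSG00000020516, chr11:86498871-86544805, minus strand) encodes the S6 kinase p70S6K, the effector whose phosphorylation is commonly read as mTORC1 activity. Its levels were 105, 97.4, 92.8, 86.1 and 85.2 CPM at pH 7.4 and 71.1, 64.9, 75, 58.7 and 60.4 CPM at pH 6.6. Every value at pH 6.6 was lower than the lowest at pH 7.4. The log2 fold change was -0.50 ± 0.08, or 0.708-fold (adjusted p = 2.33e-06).

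Eif4ebp1 and Eif4ebp2 encode the proteins 4E-BP1 and 4E-BP2, which hold the cap-binding factor eIF4E and release it when mTORC1 phosphorylates them. Eif4ebp1 (ENSMUSG00000031490, chr8:27260329-27276674, plus strand) stood at 22, 33.4, 30.7, 46.1 and 60.2 CPM at pH 7.4, the widest spread of the 10 genes in that group relative to its mean. At pH 6.6 it stood at 15.4, 14.8, 12.7, 19 and 17 CPM. The groups did not overlap, and the log2 fold change of -1.25 ± 0.15 was the largest among the members in size (0.420-fold, adjusted p = 2.54e-09). Eif4ebp2 (ENSMUSG00000020091, chr10:61428491-61452661, minus strand) stood at 68.2 to 93.9 CPM at pH 7.4 and 82.5 to 94.9 CPM at pH 6.6. Its log2 fold change was 0.10 (95% interval -0.11 to 0.31, adjusted p = 0.389).

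At pH 7 with IL-2, the milder acidification, 1 member passed the threshold, a lower one, against 19% of all genes (lower 9.83%). Eif4ebp1 was lower than at pH 7.4 by a log2 fold change of -0.71 ± 0.14 (adjusted p = 0.000601), with a mean of 22.7 ± 2.3 CPM (SD, n = 5) against 38.5 ± 14.9 CPM. The ranges overlapped because replicate 1 at pH 7.4 stood at 22 CPM, but Eif4ebp1 was lower in 5 of 5 pairs. Rheb was also lower in 5 of 5 pairs, at 87.2 ± 10.3 CPM, without passing (log2 fold change -0.23, 95% interval -0.41 to -0.05, adjusted p = 0.0833). Of the other members none was higher by the test (0 at an unadjusted p under 0.05 in edgeR, and 0 in DESeq2), and their log2 fold changes were between -0.17 for Akt1s1 and 0.08 for Tsc2.

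Without IL-2, pH 6.6 against pH 7.4 gave 5 called members, 2 higher and 3 lower, against 67% of all genes (higher 31.6%, lower 35.4%). Rheb and Tsc1 rose, the former from 49.5 ± 5.9 to 61.7 ± 3.0 CPM (log2 fold change 0.32 ± 0.09, adjusted p = 0.00303) and the latter from 66.7 ± 3.7 to 83.2 ± 6.8 CPM (0.32 ± 0.08, adjusted p = 0.000727). For both genes the ranges did not overlap. Mtor was higher in 5 of 5 pairs without passing (0.18 ± 0.08, edgeR adjusted p = 0.0623), and passed in 4 of 12 alternatives. Eif4ebp2 was lower in 5 of 5 pairs with ranges apart, also without passing (-0.21 ± 0.11, edgeR adjusted p = 0.085), and passed in 2 of 12. Of the called members, Rptor, Tsc2 and Eif4ebp1 fell. Rptor was 129 ± 15.4 CPM at pH 7.4 and 110 ± 3.2 CPM at pH 6.6 (-0.23 ± 0.08, adjusted p = 0.0158), and Tsc2 was 85.4 ± 9.2 and 70.3 ± 3.5 CPM (-0.28 ± 0.10, adjusted p = 0.0168). Eif4ebp1 was 22.2 ± 2.6 and 17.5 ± 3.7 CPM (-0.35 ± 0.14, adjusted p = 0.034).

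Each of these falls was lost without replicate 3. In that fit Rptor (-0.15, adjusted p = 0.2), Tsc2 (-0.23, adjusted p = 0.119) and Eif4ebp1 (-0.25, adjusted p = 0.193) did not pass, which left 2 members called. Over the 12 alternatives the adjusted p-values ran from 0.000369 to 0.2 for Rptor, from 0.000997 to 0.119 for Tsc2, and from 0.00348 to 0.193 for Eif4ebp1, which was lost in 7 of them. With libraries scaled by their total count alone, Rheb (0.17, adjusted p = 0.0771) and Tsc1 (0.16, adjusted p = 0.0767) did not pass, while Rps6kb1 did (-0.21, adjusted p = 0.0201). That scaling moved the median over all genes tested from -0.03 to -0.19 in this comparison. Over their 12 alternatives the adjusted p-values were 0.000406 to 0.0771 for Rheb and 2.14e-05 to 0.0767 for Tsc1.

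At pH 7 without IL-2, 0 members were called by edgeR, against 1.68% of all genes (higher 1.36%, lower 0.318%), with 1 at an unadjusted p under 0.05 and 1 called by DESeq2. That gene was Rptor, at 158 ± 12.6 CPM against 129 ± 15.4 CPM at pH 7.4 and higher in 5 of 5 pairs (log2 fold change 0.29 ± 0.08, adjusted p = 0.0743, and 0.28 with an adjusted p of 0.0492 in DESeq2). Over the 12 alternatives its adjusted p-values ran from 0.00281 to 0.562.

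Whether the effect of pH 6.6 differed between cells with and without IL-2 was tested by an interaction contrast, in which 7 members passed, 3 more positive and 4 more negative, against 67% of all genes (34.3% and 32.8%). The effect was more negative with IL-2 for Rheb (-0.97 ± 0.13, adjusted p = 9.31e-08), Eif4ebp1 (-0.90 ± 0.20, adjusted p = 0.000249), Mlst8 (-0.54 ± 0.14, adjusted p = 0.00141) and Rps6kb1 (-0.44 ± 0.12, adjusted p = 0.00133). It was more positive with IL-2 for Rptor (0.86 ± 0.12, adjusted p = 1.55e-07), Tsc1 (0.51 ± 0.11, adjusted p = 0.000191) and Tsc2 (0.38 ± 0.15, adjusted p = 0.0234). Rheb and Rptor passed in both settings with opposite signs, Rheb being -0.65 with and 0.32 without IL-2 and Rptor 0.63 with and -0.23 without. Mlst8 (-0.40 with and 0.14 without IL-2) and Tsc2 (0.10 and -0.28) also differed in sign, but each passed in only 1 setting. The same held for Eif4ebp2 (0.10 and -0.21), which passed in neither. With total counts alone as the scaling, Mlst8 (-0.31, adjusted p = 0.0669) and Rps6kb1 (-0.22, adjusted p = 0.0826) did not pass. Rps6kb1 also did not pass without replicate 2 (-0.27, adjusted p = 0.0948), nor Tsc2 without replicate 3 (0.34, adjusted p = 0.101). Over the 12 alternatives the adjusted p-values were 0.000758 to 0.0669 for Mlst8, 0.000170 to 0.0948 for Rps6kb1 and 0.00114 to 0.101 for Tsc2.

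**Figure D2:**
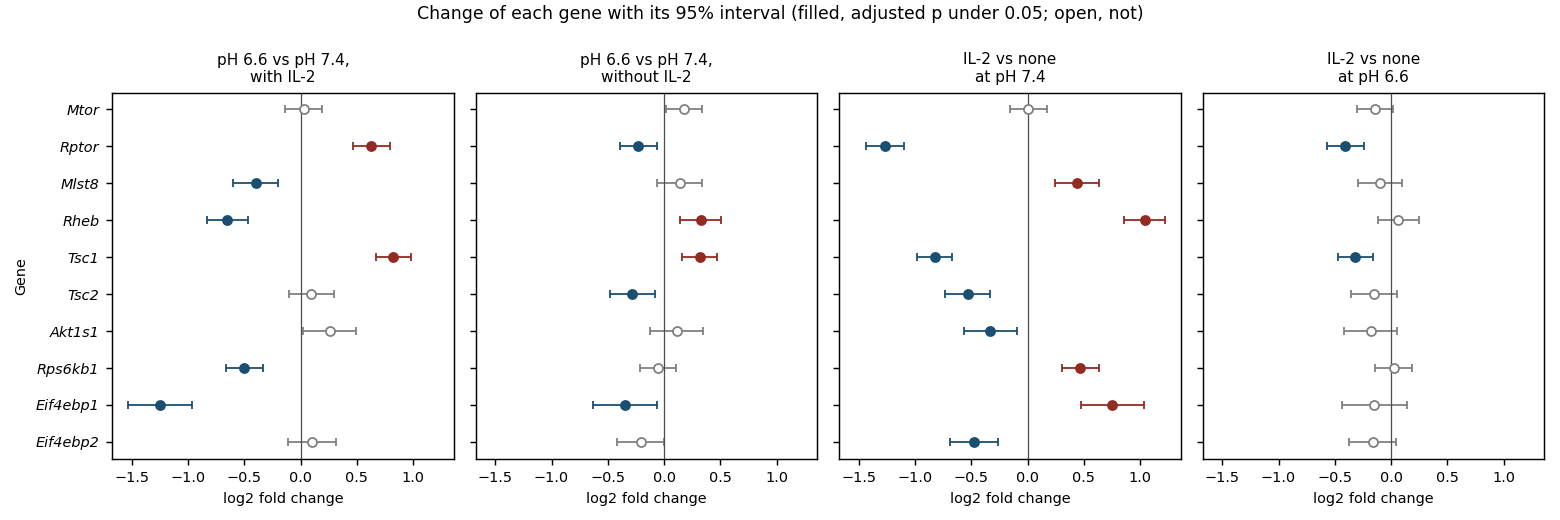
Log2 fold change (horizontal axis) of each member in 4 comparisons, with bars for the 95% interval and filled points where the adjusted p was under 0.05. IL-2 at pH 7.4 moved Rptor by -1.27 and Rheb by 1.04, whereas at pH 6.6 Rptor moved by -0.41 and Rheb by 0.07.

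The response to IL-2 itself was taken from cells with and without the cytokine at 1 pH. At pH 7.4, 9 of 10 members differed, 4 higher and 5 lower with IL-2, against 80.4% of all genes (higher 39.3%, lower 41.1%). Rheb rose from a range of 40.5 to 56.2 CPM without IL-2 to 95.3 to 109 CPM with it (2.06-fold, log2 fold change 1.04 ± 0.09, adjusted p = 6.33e-12). Eif4ebp1 (0.75 ± 0.14, adjusted p = 1.45e-05), Rps6kb1 (0.47 ± 0.08, adjusted p = 5.76e-06) and Mlst8 (0.44 ± 0.10, adjusted p = 0.000207) were also higher.

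Rptor had the largest response of the members to IL-2 at pH 7.4, in the lower direction. Its values without IL-2 were 126, 125, 150, 107 and 135 CPM, so that the highest value with IL-2, 57.7 CPM, lay well below them (0.416-fold, log2 fold change -1.27 ± 0.09, adjusted p = 4.57e-15). The inhibitors Tsc1 (-0.82 ± 0.08, adjusted p = 3.52e-11), Tsc2 (-0.53 ± 0.10, adjusted p = 2.27e-05) and Akt1s1 (-0.33 ± 0.12, adjusted p = 0.0129) were lower, as was Eif4ebp2 (-0.48 ± 0.11, adjusted p = 0.000173). The fall of Akt1s1 was lost without replicate 3 (adjusted p = 0.0607) or replicate 5 (adjusted p = 0.169), within a range of 0.000632 to 0.169 over the alternatives. Mtor was 67.8 ± 3.9 CPM without and 68.3 ± 4.2 CPM with IL-2 (log2 fold change 0.01, 95% interval -0.16 to 0.17, adjusted p = 0.941).

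At pH 6.6, 2 members differed with IL-2 against without, compared with 23.7% of all genes (higher 13.2%, lower 10.6%). Rptor was 83.1 ± 10.0 against 110 ± 3.2 CPM (-0.41 ± 0.08, adjusted p = 0.00053) and Tsc1 66.7 ± 7.0 against 83.2 ± 6.8 CPM (-0.32 ± 0.08, adjusted p = 0.00303). Both were lower in 5 of 5 pairs with ranges that did not overlap. No member was higher (0 in edgeR, 0 at an unadjusted p under 0.05 and 0 in DESeq2). Rheb was 64.7 ± 4.7 with and 61.7 ± 3.0 CPM without IL-2 (log2 fold change 0.07, 95% interval -0.12 to 0.25), and Rps6kb1 66 ± 7.0 and 64.9 ± 5.8 CPM (0.02, 95% interval -0.14 to 0.19). The comparisons share groups, so their values are set side by side and not compared as independent results.

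Over the 7 groups, the members took different orders. Rheb was highest at pH 7.4 with IL-2 and then fell through pH 7 with IL-2, 0 h, pH 6.6 with IL-2, pH 6.6, pH 7.4 and pH 7, and of these neighbours only pH 6.6 and pH 7.4 without IL-2 had ranges apart. Rptor took the reverse order of group means, from 158 ± 12.6 CPM at pH 7 through pH 7.4, pH 6.6, pH 6.6 with IL-2 and 0 h (60.8 ± 9.2 CPM) to pH 7 and pH 7.4 with IL-2, with ranges apart on either side of pH 6.6 with IL-2. Tsc1 was highest at pH 6.6 without IL-2, apart from all other groups. It was next at pH 7 without IL-2, pH 6.6 with IL-2 and pH 7.4 without IL-2, whose ranges overlapped at means of 66.7 to 67.2 CPM, and lowest at 0 h and at pH 7 and pH 7.4 with IL-2. Mtor was lowest at 0 h, with the other 6 groups at means of 67.8 to 76.7 CPM and overlapping ranges between neighbours. For Mlst8, Akt1s1, Rps6kb1, Eif4ebp1 and Eif4ebp2 the ranges of all neighbouring groups overlapped. Tsc2 was at 90.3 ± 7.7 CPM at pH 7 and 85.4 ± 9.2 CPM at pH 7.4 without IL-2, and at 59.1 to 70.3 CPM on average in the other groups.

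Levels of different genes were compared per kilobase of exon. At pH 7.4 with IL-2 the order of the mean levels ran from Eif4ebp1 (17.5 ± 6.8 CPM per kilobase) and Eif4ebp2 (14.2 ± 1.6) through Rheb (13.2 ± 0.73), Rps6kb1 (10.8 ± 0.94), Mlst8 (6.84 ± 0.62), Mtor (6.76 ± 0.41), Tsc2 (6.14 ± 0.13), Akt1s1 (4.92 ± 0.51) and Rptor (3.98 ± 0.28) to Tsc1 (3.18 ± 0.12). At pH 6.6 with IL-2, Eif4ebp2 stood apart at 15.2 ± 0.78 CPM per kilobase and the other 9 genes lay between 5.19 and 8.37 CPM per kilobase with overlapping neighbours. The exon length used is the union of annotated exons, so a gene that uses few of them is given too low a level.

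Because a ratio of counts within 1 library does not depend on how libraries are scaled, 3 ratios of partner genes were followed, with 0.5 added to each count. They were tested by an exact two-sided permutation test of 5 against 5 libraries, adjusted over 12 tests, in which the smallest p allowed is 0.00794. The log2 ratio of Tsc1 to Tsc2 was -0.59, -0.60, -0.67, -0.71 and -0.68 at pH 7.4 with IL-2 and -0.04, 0.20, 0.26, -0.12 and 0.07 at pH 6.6 with IL-2. The rise of 0.72 reached that smallest p (adjusted p = 0.0136, exact permutation test), as did the rise of 0.59 without IL-2, from a mean of -0.35 to 0.24. With IL-2 at pH 7.4 the ratio was lower than without (difference -0.30, adjusted p = 0.0136, exact permutation test).

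The log2 ratio of Eif4ebp1 to Eif4ebp2 was -1.92, -1.49, -1.48, -0.78 and -0.18 at pH 7.4 with IL-2 and -2.42, -2.68, -2.80, -2.17 and -2.36 at pH 6.6 with IL-2. It dropped by 1.32 (difference -1.32, adjusted p = 0.0136, exact permutation test). Without IL-2 the mean ratio was -2.36 at pH 7.4 and -2.51 at pH 6.6 (difference -0.15, adjusted p = 0.448, exact permutation test). IL-2 raised it by 1.19 at pH 7.4 (adjusted p = 0.0136, exact permutation test), and at pH 6.6 the difference was 0.03 (adjusted p = 0.889, exact permutation test).

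The third ratio set Rptor against Rictor, which encodes the scaffold that defines mTORC2. With IL-2 the log2 ratio was -0.86, -0.55, -0.65, -0.38 and -0.55 at pH 7.4 and -1.68, -1.46, -1.81, -1.49 and -1.55 at pH 6.6. The difference was -1.001 with IL-2 and -0.79 without (adjusted p = 0.0136 for each, exact permutation test). Rptor itself moved in opposite directions in those comparisons, although its fall without IL-2 did not pass when replicate 3 was left out. Rictor was higher at pH 6.6 in both, at 251.5 ± 30.8 against 81.2 ± 7.9 CPM with IL-2 and 304 ± 36.2 against 205 ± 18.8 CPM without. IL-2 at pH 7.4 changed the ratio by 0.08 (adjusted p = 0.597, exact permutation test).

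**Figure D3:**
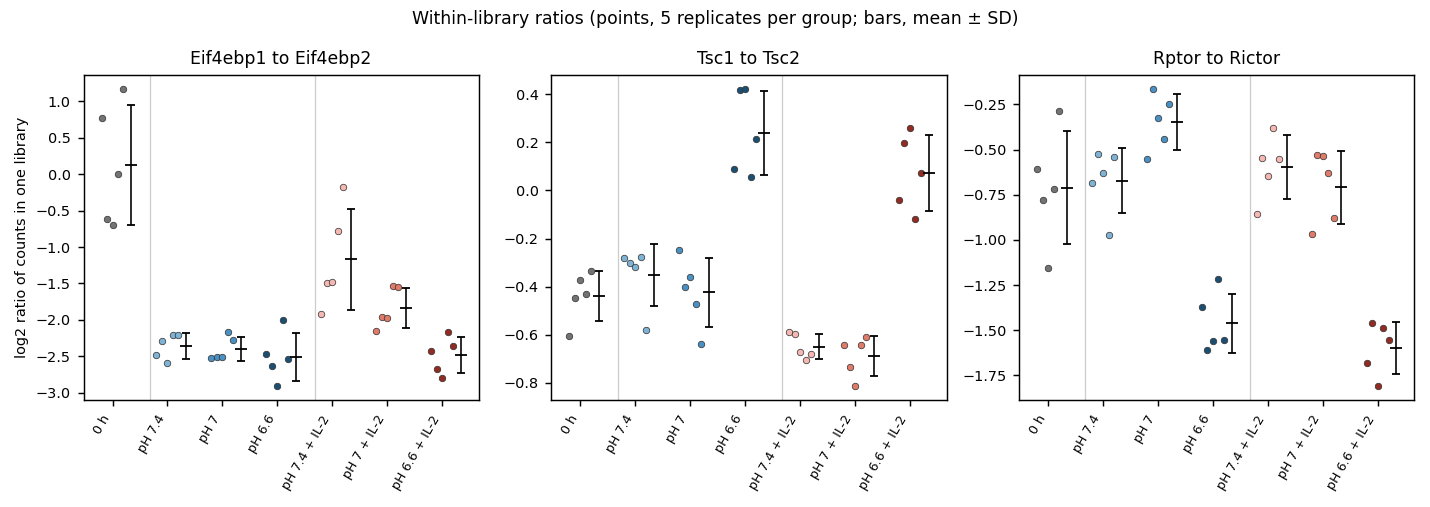
Log2 ratios of counts within a library (vertical axis) in the 7 groups, with points for the 5 replicates and bars for the mean ± SD. Tsc1 to Tsc2 was -0.12 or more in all libraries at pH 6.6 and -0.25 or less in all others, and Rptor to Rictor was lowest in the 2 groups at pH 6.6.

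Of 38 further genes upstream of mTORC1, 13 were higher and 19 lower at pH 6.6 with IL-2 (against 35.4% and 40.9% of all genes). Their median log2 fold change was -0.22. They included Rag GTPases, Ragulator, GATOR complexes, nutrient sensors, folding factors and kinases, and also a Rheb paralog, mTOR inhibitors and the TSC complex gene Tbc1d7. With IL-2, Tbc1d7 was lower (-0.83 ± 0.09, adjusted p = 6.14e-10), whereas Tsc1 of the same complex was higher. The largest changes were in the folliculin complex, a regulator of Rag GTPases, and in an mTOR folding factor. Fnip2, a folliculin partner, was 3.74 ± 0.54 CPM at pH 6.6 and 15.8 ± 2.7 CPM at pH 7.4 (log2 fold change -2.07 ± 0.17, adjusted p = 9.87e-13). Flcn, which encodes folliculin, was 102 ± 10.8 and 26.6 ± 1.4 CPM (1.95 ± 0.10, adjusted p = 2.07e-17). Telo2, needed for folding of mTOR and related kinases, was 10.9 ± 3.2 and 29.98 ± 3.1 CPM (-1.48 ± 0.13, adjusted p = 8.38e-12). Without IL-2, 12 were higher and 11 lower at pH 6.6 (all genes 31.6% and 35.4%). Tbc1d7 was among those higher without IL-2 (0.58 ± 0.09, edgeR adjusted p = 1.73e-06), in the same direction as Tsc1. With IL-2 against without at pH 7.4, 16 were higher and 10 lower (all genes 39.3% and 41.1%).

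Of 19 further effectors and translation factors, 9 were higher and 7 lower at pH 6.6 with IL-2 (median 0.20), where 76.3% of all genes were called. Ulk1, the autophagy kinase that mTORC1 inhibits, was 112 ± 25.3 against 23.4 ± 1.9 CPM (2.25 ± 0.12, adjusted p = 8.78e-18). Pdcd4, a translation inhibitor that S6 kinase marks for degradation, was 419 ± 67.5 against 115 ± 26.9 CPM (1.88 ± 0.10, adjusted p = 3.43e-17). Cad, the pyrimidine synthesis enzyme activated by S6 kinase, was 74.1 ± 19.3 against 309 ± 42.3 CPM (-2.06 ± 0.17, adjusted p = 1.16e-12). Without IL-2, 13 of the 19 were higher and 1, Eef2k, was lower at pH 6.6 (median 0.28), against 31.6% and 35.4% of all genes.

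All 5 mTORC2 genes were called at pH 6.6 with IL-2, where 76.3% of all genes were. Rictor was higher (1.63 ± 0.12, adjusted p = 4.35e-14), and Prr5l (-1.36 ± 0.11, adjusted p = 9.02e-13), Prr5 (-1.20 ± 0.15, adjusted p = 7.87e-09), Mapkap1 (-0.70) and the mTORC2 substrate Sgk1 (-0.60) were lower.

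Another list held 15 genes that mTORC1 is known to raise through ATF4, SREBP and HIF. Like the other lists, it was chosen with earlier results of these data known. Whether mTORC1 had a part in the changes of these genes was not tested. At pH 6.6 with IL-2, 14 were lower and 0 higher (0 higher at an unadjusted p under 0.05, and 0 in DESeq2), against 40.9% of all genes lower and 35.4% higher. The median of the list was -1.73, and that of all genes -0.07. Hk2, a glycolytic hexokinase, was 21.9 ± 7.8 CPM at pH 6.6 and 180 ± 34.5 CPM at pH 7.4 (-3.14 ± 0.23, adjusted p = 3.53e-13). Slc7a5, a subunit of the large amino acid transporter, was 35.5 ± 15.2 and 294 ± 16.1 CPM (-3.13 ± 0.16, adjusted p = 1.01e-17). Ldha, lactate dehydrogenase, had a log2 fold change of -2.48 ± 0.13 (adjusted p = 5.41e-18). The 1 gene that did not pass was Slc3a2, the partner of Slc7a5 (0.05, adjusted p = 0.603). With IL-2 against without, 15 of 15 were higher at pH 7.4 (median 2.75), against 39.3% of all genes. At pH 6.6, 13 were higher and 1, Slc3a2, lower (median 0.46), against 13.2% and 10.6% of all genes. Without IL-2, acidity had another pattern, in which 9 were higher at pH 6.6 and 1, Slc2a1, was lower (median 0.39), against 31.6% and 35.4% of all genes.

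**Figure D4:**
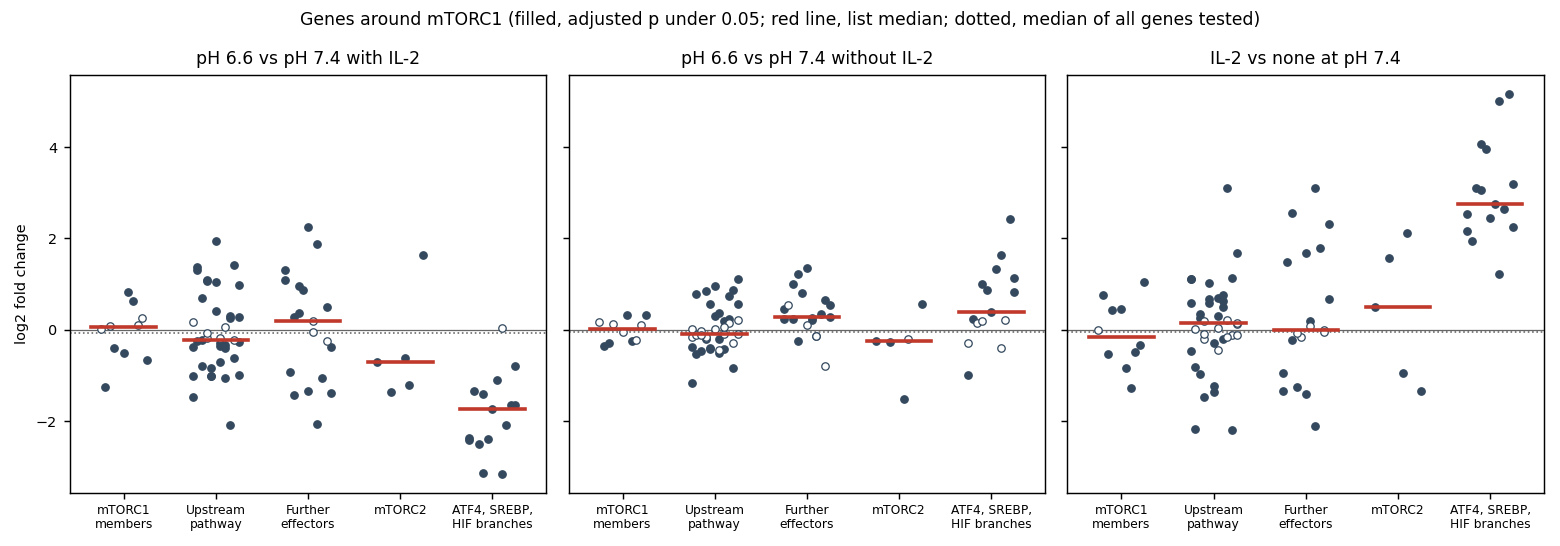
Log2 fold change (vertical axis) of the 10 members and of 4 lists of related genes in 3 comparisons, 1 point per gene, filled where the adjusted p was under 0.05, with red lines for list medians. The genes of the ATF4, SREBP and HIF branches had medians of -1.73, 0.39 and 2.75 from left to right, whereas the members' medians were 0.06, 0.03 and -0.16.

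Genes whose pattern was most like that of a member were found by Pearson correlation of log2 CPM over the 35 libraries, as a description of libraries that share their groups and scaling. Tsc1 was most like Baz2a and Rbm33 (r = 0.978 for each) and Rictor (r = 0.977). Rptor was most like Gtf2i (r = 0.977), Agtrap (r = 0.972) and D430042O09Rik (r = 0.970), and Rheb was most like Cox5a (r = 0.975), Nufip1 and Ube2k (r = 0.974 for each). Eif4ebp1 was most like Pafah1b3 (r = 0.964), Rgs11 (r = 0.957) and Egln3 (r = 0.950), and Rps6kb1 like Syncrip and Exoc5 (r = 0.953 for each) and Foxn2 (r = 0.951). The closest genes were Zfp646 for Tsc2 (r = 0.950), Pdpr for Eif4ebp2 (r = 0.928), Ep400 for Mtor (r = 0.913), Ergic3 for Akt1s1 (r = 0.891) and Usp36 for Mlst8 (r = 0.872).

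Relative to the start of the culture, cells kept for 24 h at pH 7.4 with IL-2 had 3 members higher and 3 lower, against 59.9% of all genes called (higher 29%, lower 30.9%). Mtor (0.50 ± 0.08, adjusted p = 6.72e-06), Rheb (0.33 ± 0.09, adjusted p = 0.00281) and Rps6kb1 (0.31 ± 0.08, adjusted p = 0.00192) were higher. Eif4ebp1 (-1.06 ± 0.14, adjusted p = 8.24e-08), Akt1s1 (-0.49 ± 0.12, adjusted p = 0.000724) and Tsc1 (-0.22 ± 0.08, adjusted p = 0.0191) were lower. Eif4ebp1 at 0 h was 97.3, 64.8, 55.1, 70.4 and 107 CPM, the highest level of any group on average, and 1 value at pH 7.4 with IL-2 (60.2 CPM) lay within that range. The fall of Tsc1 was lost in 5 of 12 alternatives, with adjusted p-values from 0.000483 to 0.193. Without replicate 5 the values were 0.42 for Mtor, 0.41 for Rheb, 0.32 for Rps6kb1, -1.13 for Eif4ebp1, -0.45 for Akt1s1 and -0.31 for Tsc1, and Rptor also passed (-0.23, adjusted p = 0.0236).

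Without IL-2 for 24 h at pH 7.4, 5 members were higher and 3 lower than at 0 h, against 75.2% of all genes (higher 36.9%, lower 38.3%). Rptor rose most (1.09 ± 0.09, adjusted p = 4.07e-13), followed by Eif4ebp2 (0.66 ± 0.11), Tsc1 (0.61 ± 0.08), Tsc2 (0.51 ± 0.10) and Mtor (0.49 ± 0.08). Eif4ebp1 fell most (-1.82 ± 0.14, adjusted p = 4.48e-13), followed by Rheb (-0.71 ± 0.09) and Mlst8 (-0.49 ± 0.10). Without replicate 5, 8 members were again called, with Rptor at 0.98, Tsc1 at 0.49, Tsc2 at 0.32, Mtor at 0.34 and Eif4ebp1 at -1.76. Among the called members, the value of Tsc2 moved most in proportion.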

How the data were processed

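Per the labels, RNA of OT-I CTLs was sequenced as stranded mRNA libraries (single reads), and the authors deposited raw read counts per gene for each of 35 libraries. The submitters' processing notes name cutadapt 1.8, STAR 2.5.2b, HTSeq 0.6.1 and GRCm38. The strand setting and annotation used for counting were not given in the sources used here. Rows that name no gene stayed out of library sizes and tests: alignments to several places (median 37.1%), reads on no feature (7.42%) and ambiguous reads (0.922%).

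Of 48709 gene IDs, 48349 were matched to a symbol in GENCODE M21. Totals on genes were 16721319 to 34033340 per library. Counts were tested with edgeR 4.0.16 in R 4.3.3 (quasi-likelihood, robust, TMM normalization, minimum count 10) in 1 fit of all 35 libraries with group and replicate number as terms, and adjusted by Benjamini-Hochberg over 13819 genes at 0.05. The block was used because the 5 biological replicates were cultured in all conditions. Deviations from group means correlated above 0.1 in 95 of 105 same-numbered pairs (median 0.273, against -0.075 for other pairs). CPM are TMM-normalized, except those of the cell type markers, which are scaled by library total only, and intervals are 95%. No replicate pair of the 70 in a group agreed within sampling noise (lowest chi-square per degree of freedom 6.65).

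Ratios had 0.5 added to counts and were tested in SciPy 1.17.1. On simulated data for pH 6.6 against pH 7.4 with IL-2, 13382 genes were tested. Recovered were 53 of 83 genes changed by 0.5 (log2), 61 of 70 by 1 and 47 of 47 by 2, with 7 false calls. Only these genes were changed, in randomly drawn directions, and all genes shared a common dispersion with no replicate effect. In the data 76.3% of all genes were called in this comparison, so the simulation cannot show how the test performs there. Promoter windows are RefSeq's.

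The members and gene lists were chosen with earlier results of these data known. All members are named. In each list the 3 largest changes past the threshold for pH 6.6 against pH 7.4 with IL-2 are named, plus Rictor, and for each member the genes with the 3 highest correlations were computed. Tbc1d7, Mapkap1, Sgk1, Eef2k, Slc2a1 and Slc3a2 were named after their values were seen. Alternatives were RLE normalization, DESeq2 1.42.0, other count filters, only the groups compared, no replicate block, leaving out each replicate, a minimum fold change and, chosen after seeing the data, scaling by library size only.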

Additional observations from a re-analysis of the deposited data

Results flagged for a closer look

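In 5 of the 91 series of 5 replicates examined, 1 library lay far from the others by Dixon's criterion, where chance gives about 1 in 20. At pH 7.4 without IL-2, replicate 5 had Mtor at 74.7 CPM (the others 65.2 to 67.0), Akt1s1 at 24.6 CPM (16.6 to 18.3) and a log2 ratio of Tsc1 to Tsc2 of -0.58 (-0.32 to -0.28), and replicate 4 had Mlst8 at 19.7 CPM (22.7 to 23.6). At pH 6.6 without IL-2, replicate 1 had Mlst8 at 20.5 CPM (25.4 to 26.2).

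The effect of pH 6.6 differed between cells with and without IL-2 by the interaction test in edgeR for 7 members. The difference in log2 fold change, with minus without IL-2, was 0.86 for Rptor, -0.54 for Mlst8, -0.97 for Rheb, 0.51 for Tsc1, 0.38 for Tsc2, -0.44 for Rps6kb1 and -0.90 for Eif4ebp1.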

How the results depend on the processing

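Of 90 log2 fold changes of members, 44 passed the threshold, and 34 of these passed in all 12 alternatives, 10 were lost in at least 1, and 0 changed sign. Of the 46 that did not pass, 14 changed sign and 12 passed in at least 1 alternative. The causes were not tested.

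With a minimum absolute log2 fold change of 1, the genes and members called were 4753 and 1 (pH 6.6 against pH 7.4 with IL-2), 203 and 0 (pH 7 with IL-2), 2829 and 0 (pH 6.6 without IL-2), 62 and 0 (pH 7 without IL-2), 5657 and 2 (IL-2 at pH 7.4), 516 and 0 (IL-2 at pH 6.6), 4688 and 0 (interaction), 2091 and 1 (pH 7.4 with IL-2 against 0 h) and 4205 and 2 (pH 7.4 without IL-2 against 0 h). In fits of only the groups compared, 4388 genes and 2 members (pH 7 with IL-2), 942 and 1 (pH 7 without IL-2) and 5369 genes (IL-2 at pH 6.6) were called, against 2623, 232 and 3278 genes. Without the replicate block these counts were 1660 and 56 at pH 7 with and without IL-2. DESeq2 called 1 member at pH 7 without IL-2.

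Without the block, the call of Eif4ebp1 at pH 6.6 without IL-2 was lost (adjusted p = 0.118). A sign-flip test of the ratios over the replicate pairs (block) cannot pass 0.05, and gave an adjusted p of 0.0938 for the differences -1.32, 1.19, 0.72, 0.59, -0.30, -1.001 and -0.79.

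Signs changed for values that had not passed the threshold, not all of them near 0. In the main fit, Mlst8 was 0.14 and Akt1s1 0.11 (pH 6.6 without IL-2), and Mtor -0.15 (interaction). With library size only, Mtor was 0.046 and Eif4ebp2 0.038 (pH 7 with IL-2), Mlst8 -0.015 and Akt1s1 -0.043 (pH 6.6 without IL-2), and Mtor -0.15 (IL-2 at pH 7.4) and 0.078 (interaction). With a stricter filter Mtor was 0.0013 and -0.042, and with only the groups compared 0.017 and -0.00066, at pH 7 with IL-2 and for IL-2 at pH 7.4. Eif4ebp2 was 0.011 at pH 7 with IL-2 with only the groups compared, and Tsc2 0.0016 against 0 h with a looser filter. Library size only moved the share of calls that were higher from 55.5% to 74.6% (IL-2 at pH 6.6), 51.1% to 62.8% (interaction), 47.2% to 34.7% (pH 6.6 without IL-2) and 48.2% to 65.7% (pH 7 with IL-2).

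Leaving out each replicate gave 1283 to 2425 genes (pH 7 with IL-2), 35 to 332 (pH 7 without IL-2), 2119 to 2630 (IL-2 at pH 6.6) and 2 to 5 members (pH 6.6 without IL-2). Ranges that crossed 0 were, for Mtor, -0.00037 to 0.12 (pH 6.6 with IL-2), -0.019 to 0.012 (pH 7 with IL-2) and -0.095 to 0.079 (IL-2 at pH 7.4), for Eif4ebp2 -0.034 to 0.011 (pH 7 with IL-2), for Akt1s1 -0.027 to 0.21 (pH 6.6 without IL-2), -0.056 to 0.048 (pH 7 without IL-2) and -0.26 to 0.025 (pH 7.4 against 0 h), and for Rps6kb1 -0.13 to 0.017 (pH 6.6 without IL-2) and -0.015 to 0.086 (IL-2 at pH 6.6). They were -0.017 to 0.045 for Tsc1 (pH 7 without IL-2), -0.11 to 0.0096 for Mlst8 and -0.14 to 0.033 for Tsc2 (pH 7.4 with IL-2 against 0 h), -0.015 to 0.074 for the ratio of Eif4ebp1 to Eif4ebp2 (IL-2 at pH 6.6) and -0.054 to 0.14 for Rptor to Rictor (IL-2 at pH 7.4).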
